A study of Mus musculus with 24 samples.

Results

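The 10 genes described here store, carry and sense cellular iron. They were chosen by name from the known biology of iron handling, with earlier results of these data known. They are 10 of the 23420 gene symbols counted in the series, of which 17155 had a count in at least 1 library. Fth1 and Ftl1 encode the heavy and light ferritin subunits, and Ncoa4 encodes the receptor that delivers ferritin to the lysosome. Tfrc encodes the transferrin receptor, Slc11a2 (DMT1) and Slc11a1 (NRAMP1) encode metal transporters of the endosome and phagosome, Slc40a1 encodes the iron exporter ferroportin, and Cp encodes the ferroxidase ceruloplasmin. Aco1 and Ireb2 encode the iron regulatory proteins IRP1 and IRP2.

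The series measured polyadenylated RNA in 24 libraries of 10 groups from mice of the C57BL/6 strain. 8 libraries came from Th2 cells, which are helper T cells cultured with IL-4 from naïve CD4+ cells of spleen and lymph nodes, with 4 TDG iKO and 4 WT libraries. 16 came from bone marrow-derived macrophages (BMDMs), grown with M-CSF, in 8 groups of 2. A Tdg cohort compared TDG iKO with WT and a Tet cohort compared TET iTKO with WT, each before (0 h) and 6 h after KLA, a lipid A that activates TLR4. TDG iKO denotes Tdg fl/fl mice and TET iTKO denotes mice with floxed Tet1, Tet2 and Tet3, both with a tamoxifen-inducible Cre. The Rosa26 reporter of Cre activity was H2B-EGFP/GPI-mCherry in TDG iKO and EYFP in TET iTKO mice, and naïve T cells were sorted for it. Deletion in the animal was not limited to the cells analysed, and knockout and control mice, all adult, were given tamoxifen. The sources used here do not say whether WT mice carried floxed alleles or Cre. TET enzymes oxidise 5-methylcytosine in DNA, and TDG excises the most oxidised products. The labels do not say for every library that it came from a separate animal, so the p-values measure the spread between these libraries, which may be partly technical. In bulk RNA, fewer cells of a type and less RNA per cell cannot be told apart.

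Macrophages take up iron from transferrin and from engulfed red cells, keep it in ferritin, and return it to plasma through ferroportin. During infection or endotoxin exposure they are known to hold iron back from microbes. Dividing T cells import iron mainly through the transferrin receptor. When cytosolic iron is low, IRP1 and IRP2 bind RNA hairpins called iron-responsive elements. Binding in a 5′ UTR blocks translation, whereas binding in a 3′ UTR protects the transcript from decay. An mRNA level of ferritin or ferroportin therefore need not track its protein, and protein was not measured here.

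The hairpins were searched for in the whole transcripts of 22611 protein-coding genes of the mm9 annotation, on the transcribed strand. The pattern required an unpaired C, 5 bases, the loop CAGTGN, 5 bases pairing with the first 5, and at least 3 pairs in the 5-base lower stem. It occurred in 93 genes (0.411%), counting matches in coding sequence as well as in UTRs. It occurred in 4 of the 10 members, with 7 elements in all. They are shown because the placing of this hairpin, before or after the coding sequence, is the known difference between these transcripts. Each is printed 5′ to 3′ with the loop in capitals. The Fth1 element is at chr19:10057223-10057249 on the plus strand, the Ftl1 element at chr7:52715150-52715176 on the minus strand and the Slc40a1 element at chr1:45982311-45982337 on the minus strand, all in a 5′ UTR. The 4 Tfrc elements are in the 3′ UTR on the plus strand of chromosome 16, at chr16:32631306-32631332, chr16:32631685-32631711, chr16:32631750-32631776 and chr16:32631797-32631823.
Fth1 5′ UTR: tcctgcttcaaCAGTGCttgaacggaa
Ftl1 5′ UTR: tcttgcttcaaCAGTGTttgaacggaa
Slc40a1 5′ UTR: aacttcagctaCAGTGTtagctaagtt
Tfrc 3′ UTR, the first: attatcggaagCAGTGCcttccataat
Tfrc 3′ UTR, the second: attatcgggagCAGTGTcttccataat
Tfrc 3′ UTR, the third: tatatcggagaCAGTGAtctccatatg
Tfrc 3′ UTR, the fourth: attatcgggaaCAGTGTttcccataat
A match is a description of sequence and not of binding. For the other 6 members no stretch of annotated transcript fitted the pattern, which says only that these letters were not found.

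On mm9, Fth1 spans chr19:10057193-10059582 (plus strand), Ftl1 chr7:52713314-52715254 (minus) and Ncoa4 chr14:32973051-32993041 (plus). Tfrc spans chr16:32609006-32632880 (plus), Slc11a2 chr15:100218329-100255503 (minus), Slc11a1 chr1:74421777-74432636 (plus) and Slc40a1 chr1:45964915-45982439 (minus). Cp spans chr3:19857054-19909145, Aco1 chr4:40090114-40146042 and Ireb2 chr9:54711562-54760341, all on the plus strand. Some members share sequence with near-identical copies at other loci. When transcripts were cut into overlapping windows of 50 bases, 74.9% of those of Ftl1, 78.8% for Ncoa4 and 8.69% for Fth1 also matched another locus, against 0% to 1.24% for the other 7 genes. The levels of Ftl1 and Ncoa4 in particular depend on how such reads were assigned, so comparisons of 1 gene between libraries are safer than comparisons with other genes. Between the cell types this is less sure. Pairs that did not align uniquely made up 30.9% to 32.2% of all pairs in Th2 libraries and 16.6% to 25.8% in BMDM libraries. Slc11a2 and Cp overlap an antisense gene over 402 and 108 bases, and the strand setting of the counting is not given in the sources used here.

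The libraries held 4982950 to 26657729 assigned counts, with a median of 14853861. The second WT replicate of the Tdg cohort at 0 h stood apart. It had the fewest counts, the highest share of Fth1 (3.58%) and Ftl1 (1.14%), and low counts of several other members, including 25 of Ncoa4 and 2 of Slc40a1. Several results that rest on it are given with and without it. Th2 replicates 3 and 4 of each genotype differed by little more than counting noise, with a mean chi-square per gene of 1.34 and 1.51 against 21.3 to 218 for the other pairs, and were counted as 1 sample. Rn45s, a ribosomal RNA gene, took 0.148% to 8.34% of the assigned counts. Macrophage markers summed to 21468 to 28920 CPM (counts scaled to the library total without Rn45s) in BMDMs and 10.8 to 60.5 in Th2 cells. T cell markers summed to 1213 to 1840 in Th2 cells and 6.99 to 26.5 in BMDMs. Erythroid markers reached at most 0.0852 in any library. The knockout labels could not be checked from counts. Tdg was near 0 in WT as well, at 0 to 10.6 normalised counts, and Tet2 was not lower in TET iTKO than in WT BMDMs (log2 fold change 0.37, DESeq2 adjusted p = 0.0894 at 0 h). Tet3 had a log2 fold change of 0.12 at 0 h, and gene-level counts do not resolve the deleted exons.

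Ferritin transcripts were among the most abundant in the macrophage libraries. Levels per gene length were expressed as RPKM, which scales CPM by the kilobases of exon of the gene. In the 16 BMDM libraries Fth1 ranged from 16608 to 41522 RPKM with a median of 23656, and Ftl1 from 3317 to 8529 with a median of 4336. Without the library that stood apart the highest values were 26443 for Fth1 and 5378 for Ftl1. Fth1 had the highest raw count of all genes in 14 of the 16 libraries and took 1.44% to 3.58% of the counts. That it led most BMDM libraries was known when the members were chosen. In the 8 Th2 libraries Fth1 ranged from 691 to 832 RPKM with a median of 742, and Ftl1 from 275 to 340 with a median of 316. No library of either cell type fell within the range of the other for these genes.

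The uptake genes divided between the cell types. Tfrc, which brings in transferrin-bound iron, ranged from 13.0 to 67.8 RPKM (median 29.3) in BMDMs and from 92.1 to 192 (median 144) in Th2 cells, so that every Th2 library was above every BMDM library. Slc11a1, the phagosomal transporter whose C57BL/6 allele is known to lose function, ranged from 104 to 192 RPKM (median 151) in BMDMs and from 0 to 0.0714 in Th2 cells. Slc11a2, which moves iron out of the endosome, ranged from 12.1 to 33.7 RPKM (median 23.3) in BMDMs and from 5.89 to 8.25 (median 6.87) in Th2 cells. Export and ferroxidase genes were detected mainly in macrophages. Cp ranged from 1.75 to 15.2 RPKM in BMDMs and reached at most 0.00394 in Th2 cells. Slc40a1 ranged from 0.119 to 4.53 RPKM in BMDMs and reached at most 0.0151 in Th2 cells.

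The levels of the sensors overlapped between the cell types. Ireb2 ranged from 8.13 to 26.1 RPKM (median 20.4) in BMDMs and from 14.7 to 19.5 (median 17.1) in Th2 cells, and Aco1 from 5.75 to 14.8 (median 11.2) and from 8.38 to 15.1 (median 10.4). Ncoa4 ranged from 1.13 to 9.91 RPKM (median 7.36) in BMDMs and from 3.55 to 4.79 (median 4.29) in Th2 cells. Its overlap rested on the library that stood apart, without which the lowest BMDM library was at 6.55. By median, the order in BMDMs was Fth1, Ftl1, Slc11a1, Tfrc, Slc11a2, Ireb2, Aco1, Ncoa4, Cp and Slc40a1, and the ranges of neighbours overlapped except for Fth1 and Ftl1, Ftl1 and Slc11a1, and Slc11a1 and Tfrc. Without the library that stood apart Ireb2 (17.7 and above) and Aco1 (14.8 and below) did not overlap either. With the length of the longest transcript in place of all exons the median of Cp was 14.1, above Aco1 at 13.4 and Ncoa4 at 8.06, so the order of these 3 depends on the length used. With all exons but without the library that stood apart the median was 7.67 for Cp and 7.51 for Ncoa4, which reverses their order. The BMDM medians pool 0 h and 6 h libraries. In Th2 cells the order was Fth1, Ftl1, Tfrc, Ireb2, Aco1, Slc11a2 and Ncoa4, with Slc11a1, Slc40a1 and Cp at or near 0. There the ranges of neighbours overlapped for Ireb2 and Aco1, and did not for Fth1 and Ftl1, Ftl1 and Tfrc, or Tfrc and Ireb2. Aco1 did not overlap Slc11a2 in Th2 cells, nor Slc11a2 Ncoa4.

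**Figure D1:**
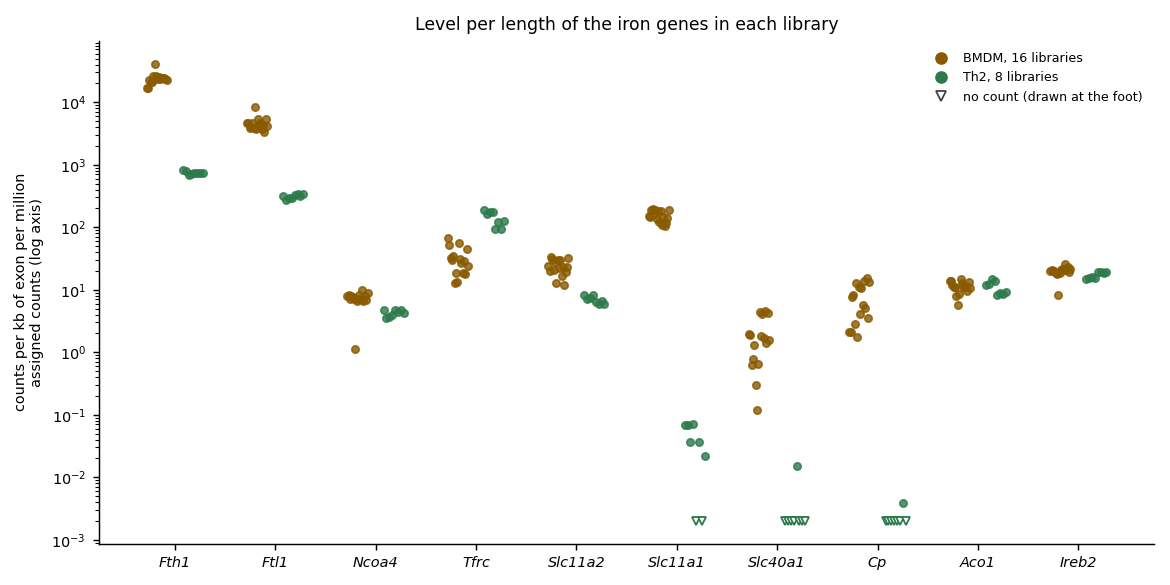
Level of the 10 iron genes in RPKM (log axis), with 1 point per library for the 16 BMDM and 8 Th2 libraries. Fth1 and Ftl1 sit highest in both cell types, Tfrc is higher in every Th2 library than in any BMDM library, and Slc11a1, Slc40a1 and Cp are at or near 0 in Th2 cells.

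The WT cells of the 2 types were compared without KLA, with 3 Th2 samples against 4 BMDM libraries of both cohorts. 7 of the 10 members passed an adjusted p of 0.05 (DESeq2 Wald test, Benjamini-Hochberg over all genes), where 53.7% of the 14175 genes tested did. 1 was higher in Th2 cells (28.4% of all genes) and 6 were lower (25.3%). The members' median log2 fold change was −3.32 and that of all genes tested 0.14. Fth1 was lower in Th2 cells by a log2 fold change of −5.58 (DESeq2 adjusted p = 1.41e-54, SE 0.35) and Ftl1 by −4.75 (SE 0.30, adjusted p = 6.79e-55). Slc11a2 was lower, at −1.88 (SE 0.27, adjusted p = 9.46e-12), and Tfrc was higher, at 1.26 (SE 0.42, adjusted p = 0.00698). Without the BMDM library that stood apart Fth1 was at −5.28, Ftl1 at −4.53, Slc11a2 at −2.09 and Tfrc at 0.95. Tfrc passed less firmly, with an adjusted p of 0.0529 when Th2 WT replicate 2 was left out.

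For the 3 genes near 0 in Th2 cells the ratio of raw counts is more direct than a fitted fold. The 3 Th2 samples held 4 counts of Slc11a1 against 26501 in the 4 BMDM libraries. After scaling to all counts but those of Rn45s the ratio was 7838 (95% exact interval 3061 to 28769, counting error only). Slc40a1 had 1 count against 609, a ratio of 720 (129 to 28504), and Cp had 1 against 1604, a ratio of 1898 (340 to 74999). All 3 passed the DESeq2 test as lower in Th2 cells, where the transcripts were close to the limit of detection.

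Aco1 (log2 fold change −0.44, DESeq2 adjusted p = 0.297), Ireb2 (−0.43, 0.281) and Ncoa4 (−0.86, 0.157) did not pass. Without the BMDM library that stood apart all 10 members passed, with Aco1 at −0.71 (adjusted p = 0.00942), Ireb2 at −0.69 (0.000295) and Ncoa4 at −1.23 (3.02e-08). Cell type cannot be told apart from culture, animals and library batch in this comparison.

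Transport genes changed with KLA in WT macrophages of the Tet cohort, and fewer of them passed in the Tdg cohort. In the Tet cohort 6 of the 10 members passed the test in WT cells 6 h after KLA, where 23.6% of the 12114 genes tested did. 4 rose (12.8% of all genes rose) and 2 fell (10.8% fell). In WT cells of the Tdg cohort 2 members passed, where 8.73% of 11530 genes did, and both rose (5.35% rose and 3.37% fell). The members' median log2 fold change was 0.17 in the first and 0.32 in the second, beside −0.01 and −0.03 for all genes tested. The normalised counts given below are on 1 scale for all 16 BMDM libraries, whereas each fit used the scaling of its own cohort.

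Ceruloplasmin gave the largest rise of the members in both cohorts. Cp had 504 and 435 normalised counts at 0 h and 1387 and 1844 at 6 h in WT of the Tet cohort, a log2 fold change of 1.79 (DESeq2 adjusted p = 3.81e-28, SE 0.16). In WT of the Tdg cohort it had 245 and 241 at 0 h and 986 and 1609 at 6 h, a log2 fold change of 2.43 (SE 0.43, adjusted p = 8.01e-07), and 2.41 (adjusted p = 0.000445) without the library that stood apart. The groups did not overlap in either cohort. In the Tet cohort this held for every member, also for those that did not pass, and the share of all genes was not computed. Cp is known in macrophages as a secreted or membrane-bound oxidase that supports export of iron through ferroportin.

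Ferroportin moved the other way in the Tet cohort. Slc40a1 had 193 and 189 normalised counts at 0 h and 84.5 and 77.2 at 6 h in WT cells, a log2 fold change of −1.23 (DESeq2 adjusted p = 1.33e-05, SE 0.25). Both stimulated libraries were below both unstimulated ones. In WT of the Tdg cohort the values were 80.4 and 5.80 at 0 h and 28.1 and 32.6 at 6 h, with the low 0 h value in the library that stood apart. The log2 fold change there was −0.56, and −1.40 without that library, and the gene did not pass the test.

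The transferrin receptor fell in the Tet cohort and the endosomal and phagosomal transporters rose. Tfrc had 4403 and 3627 normalised counts at 0 h and 2618 and 2105 at 6 h in WT cells (log2 fold change −0.76, SE 0.13, DESeq2 adjusted p = 1.39e-07). Slc11a2 had 1809 and 1913 at 0 h and 2634 and 2931 at 6 h (0.58, SE 0.15, adjusted p = 0.000977). Slc11a1 had 5843 and 6810.5 at 0 h and 9172 and 9896 at 6 h (0.59, SE 0.12, adjusted p = 1.8e-05). None of these groups overlapped, but neither did those of Fth1, Aco1 and Ireb2, which did not pass the test. The share of all genes without overlap is not given here. By the fitted values the gene of transferrin uptake and the genes of metal transport across endosomal and phagosomal membranes moved in opposite directions.

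In WT of the Tdg cohort Slc11a2 had 1899 and 1160 normalised counts at 0 h and 2875 and 2858 at 6 h, a log2 fold change of 0.91 (DESeq2 adjusted p = 0.0457, SE 0.31). It was 0.59 (adjusted p = 0.160) without the library that stood apart and edgeR gave an adjusted p of 0.116. Slc11a1 had 7008 and 7070.5 at 0 h and 9287 and 10105 at 6 h. Tfrc had 5184 and 1618 at 0 h and 2653 and 1212 at 6 h, so its groups overlapped. Its log2 fold change was −0.81, and −1.42 without the library that stood apart. Neither Slc11a1 nor Tfrc passed the test in this cohort.

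Heavy ferritin did not pass the test for KLA. Fth1 had 265909 and 265879 normalised counts at 0 h and 302244 and 283464 at 6 h in WT of the Tet cohort. Ftl1 had 91961 and 94093 at 0 h and 79810 and 80155 at 6 h, a log2 fold change of −0.22 (DESeq2 adjusted p = 0.0900). The cultures of this cohort carried the same animal number at 0 h and 6 h, and with that pairing as a replicate block Ftl1 passed (adjusted p = 0.0041), giving 7 members in place of 6. Ncoa4 had 401 and 402 at 0 h and 505 and 572 at 6 h (0.42, SE 0.17, adjusted p = 0.0449) and failed the test when any of the 4 libraries was left out. Aco1 and Ireb2 did not pass in WT of either cohort.

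**Figure D2:**
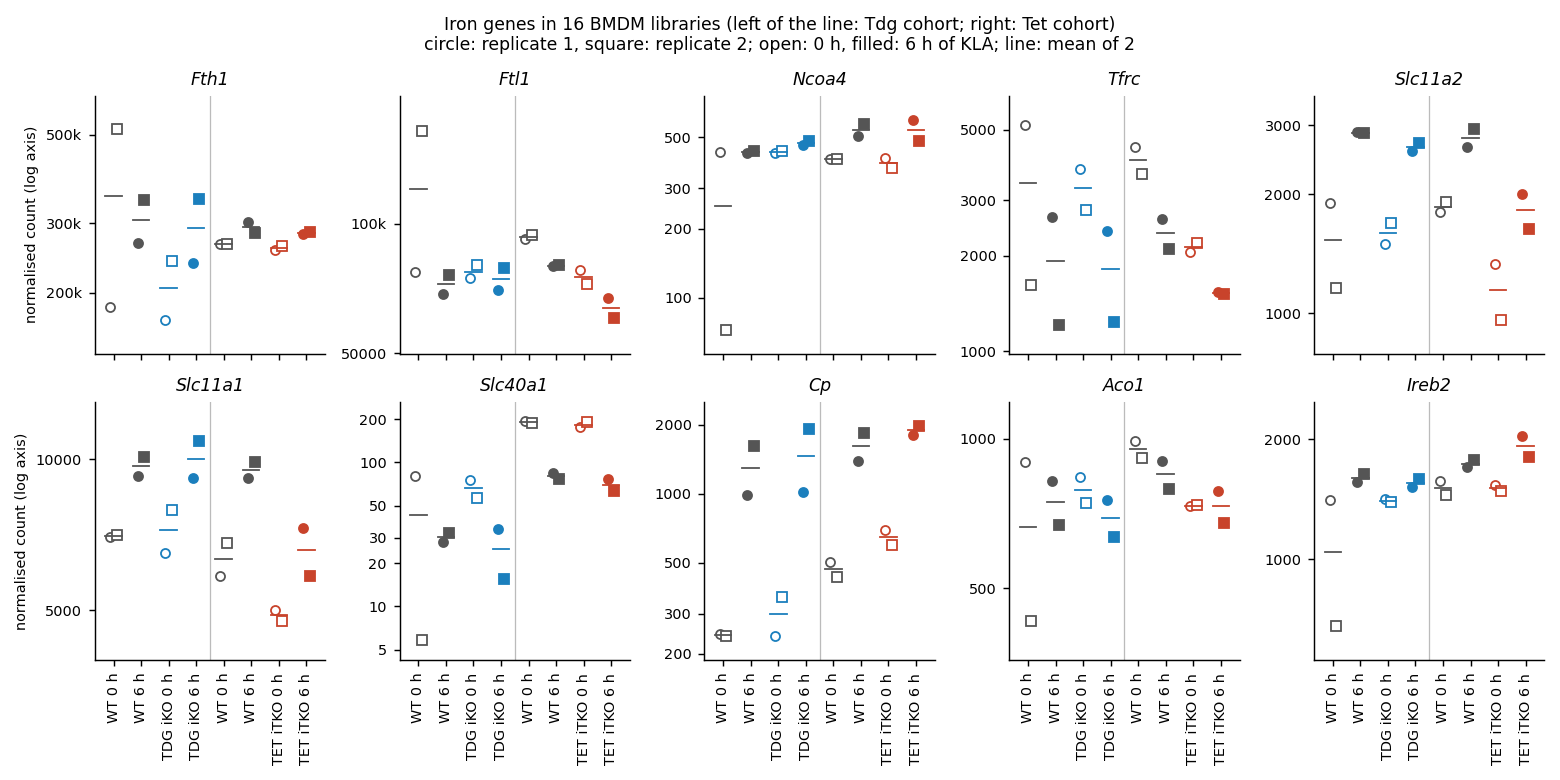
Normalised counts of the 10 iron genes in the 16 BMDM libraries (log axes), 1 panel per gene and 1 point per library, grouped by cohort, genotype and hours of KLA, with lines at group means. Cp is higher at 6 h in every group, Slc40a1 and Tfrc are lower at 6 h in both genotypes of the Tet cohort, and the second 0 h WT library of the Tdg cohort lies apart for Fth1, Ftl1, Ncoa4 and Slc40a1.

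The same comparison within the knockouts gave the following. In TET iTKO cells 8 of the 10 members passed, where 24.7% of 11240 genes did. 5 rose (13.0% of all genes) and 3 fell (11.7%), and the members' median was 0.23 beside −0.01 for all genes. Cp had 696 and 596 normalised counts at 0 h and 1811 and 1971 at 6 h (log2 fold change 1.54, SE 0.16, DESeq2 adjusted p = 1.94e-21). Slc40a1 had 176 and 190.5 at 0 h and 76.9 and 63.5 at 6 h (−1.40, SE 0.26, adjusted p = 7.26e-07). Slc11a2 had 1328 and 957 at 0 h and 2010.5 and 1639 at 6 h (0.67, SE 0.15, adjusted p = 0.000121). The stimulated and unstimulated libraries did not overlap for these 3 genes, nor for any other member but Aco1. Fth1, which did not pass, was among those others, and the share of all genes without overlap was not computed.

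Tfrc fell from 2055 and 2202 normalised counts to 1536 and 1517 in TET iTKO cells (−0.49, SE 0.13, DESeq2 adjusted p = 0.002), and Slc11a1 rose from 5003 and 4759 to 7304 and 5857 (0.42, SE 0.12, adjusted p = 0.0042). Ftl1 fell from 77927 and 72285 to 67347 and 60245 (−0.24, SE 0.10, adjusted p = 0.0465). Ireb2 rose from 1533 and 1482 to 2042 and 1803 (0.34, SE 0.12, adjusted p = 0.0174) and Ncoa4 from 406 and 367 to 595 and 484 (0.47, SE 0.17, adjusted p = 0.0218). With 1 library left out 3 to 7 members passed, and Slc40a1, Slc11a2 and Cp passed each time. The smallest count, 3, was without the second TET iTKO replicate at 0 h, and it was 5 without the first replicate at either time.

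In TDG iKO cells 1 member passed, where 6.95% of 11821 genes did (4.20% rose and 2.74% fell). The members' median was 0.15 beside 0.00 for all genes. Cp had 240 and 356 normalised counts at 0 h and 1019 and 1917 at 6 h (log2 fold change 2.30, SE 0.42, DESeq2 adjusted p = 2.39e-06). Slc11a2 had 1495 and 1691 at 0 h and 2583 and 2694 at 6 h, with a log2 fold change of 0.73 and an adjusted p of 0.183. That p was 0.00683 when the WT library that stood apart, which is in neither group, was left out of the shared estimate of the spread. Cp was the member that passed in all 4 KLA comparisons.

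**Figure D3:**
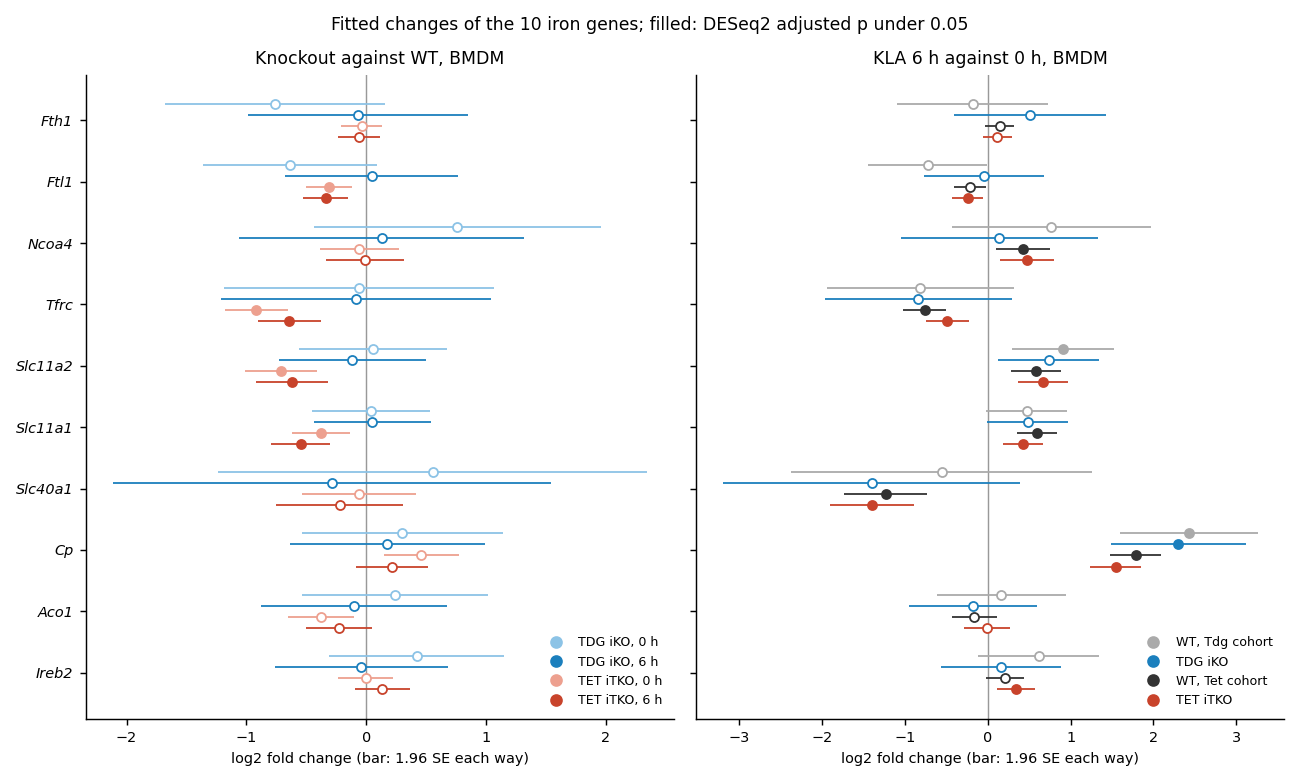
Log2 fold changes of the 10 iron genes with 95% confidence intervals in the KLA, TET iTKO and TDG iKO comparisons of BMDMs, with filled points for a DESeq2 adjusted p under 0.05. Cp is filled in all 4 KLA comparisons, Tfrc, Slc11a2, Slc11a1 and Ftl1 are filled and below 0 in both TET iTKO comparisons, and no point is filled for TDG iKO against WT.

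TET iTKO macrophages held fewer transcripts of the uptake genes and of light ferritin than WT macrophages of their cohort. At 0 h 4 of the 10 members passed, where 7.56% of the 12114 genes tested did. All 4 were lower, beside 3.15% of all genes lower and 4.42% higher. At 6 h 4 members passed, where 6.45% of 11823 genes did, and all 4 were lower, beside 3.28% lower and 3.16% higher. They were Tfrc, Slc11a2, Slc11a1 and Ftl1 at both times. The members' median log2 fold change was −0.18 at 0 h and −0.22 at 6 h, beside 0.01 and 0.00 for all genes tested. The 0 h libraries of both genotypes also enter the KLA comparisons above, so the 2 sets of values are not independent.

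Tfrc had the largest difference. WT cells had 4403 and 3627 normalised counts at 0 h and TET iTKO cells 2055 and 2202, a log2 fold change of −0.92 (DESeq2 adjusted p = 1.19e-09, SE 0.13). At 6 h WT had 2618 and 2105 and TET iTKO 1536 and 1517 (−0.64, SE 0.13, adjusted p = 0.000125). Both TET iTKO libraries were below both WT libraries at each time, and Tfrc passed the test with any 1 of the libraries left out.

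Slc11a2 had 1809 and 1913 normalised counts in WT and 1328 and 957 in TET iTKO at 0 h (−0.71, SE 0.15, DESeq2 adjusted p = 0.000177), and 2634 and 2931 against 2010.5 and 1639 at 6 h (−0.62, SE 0.15, adjusted p = 0.00175). Slc11a1 had 5843 and 6810.5 in WT and 5003 and 4759 in TET iTKO at 0 h (−0.38, SE 0.12, adjusted p = 0.0361), and 9172 and 9896 against 7304 and 5857 at 6 h (−0.55, SE 0.12, adjusted p = 0.00052). The genotypes did not overlap for either gene at either time, nor for Aco1, which did not pass. The transporters thus rose with KLA in both genotypes and were lower in TET iTKO at both times.

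Ftl1 had 91961 and 94093 normalised counts in WT and 77927 and 72285 in TET iTKO at 0 h (−0.31, SE 0.10, DESeq2 adjusted p = 0.0218), and 79810 and 80155 against 67347 and 60245 at 6 h (−0.34, SE 0.10, adjusted p = 0.0108). Fth1, the other ferritin subunit, had 256137 and 262826 in TET iTKO at 0 h and 280985 and 284954 at 6 h and did not pass. The ratio of raw Fth1 to Ftl1 counts, a measure added after the values were seen and given without a test, was 2.83 to 2.89 in WT and 3.29 to 3.64 in TET iTKO at 0 h. At 6 h it was 3.54 to 3.79 and 4.17 to 4.73. In the Tdg cohort it was 2.38 to 3.15 in WT and 2.29 to 3.00 in TDG iKO at 0 h, and 3.90 to 4.52 and 3.38 to 4.36 at 6 h. In Th2 cells it was 1.41 to 1.85. Every stimulated BMDM library had a higher ratio than every unstimulated library of its own cohort and genotype.

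**Figure D4:**
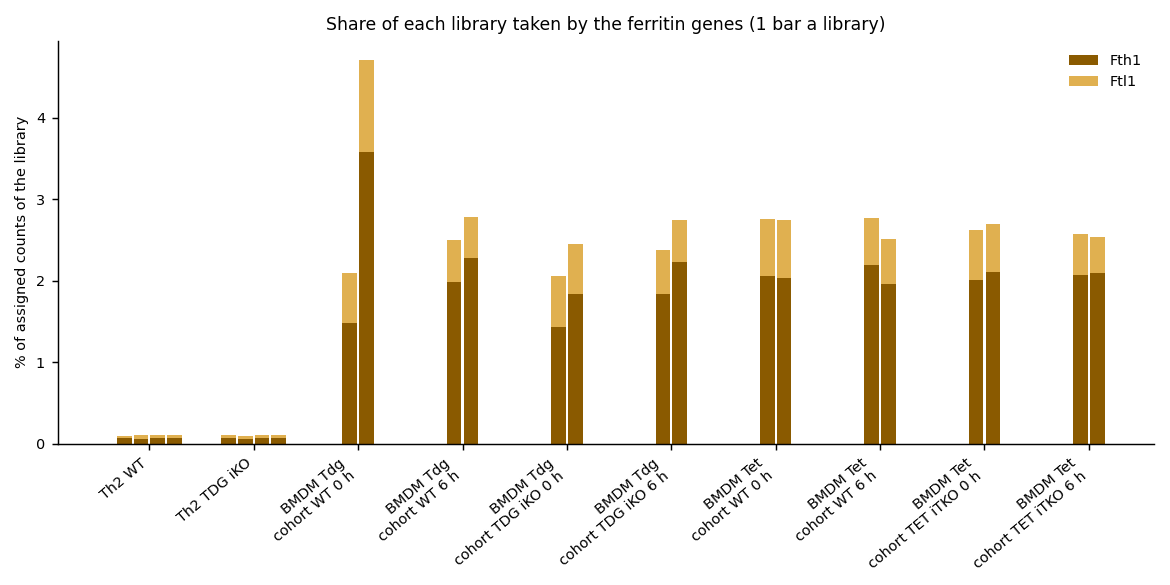
Share of all assigned counts (percent) taken by Fth1 and by Ftl1 in each library, with 1 stacked bar per library and the axis starting at 0. The Ftl1 share is drawn on top of that of Fth1. In BMDMs Fth1 takes 1.44% to 3.58% and Ftl1 0.442% to 1.14%, with both highest in the 0 h WT library of the Tdg cohort that stood apart, and in Th2 cells both are at most 0.0688%.

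The export, oxidase and sensor genes did not pass in TET iTKO against WT. At 0 h Cp was at 0.46 (DESeq2 adjusted p = 0.0533) and Aco1 at −0.38 (adjusted p = 0.0782), and edgeR called both (adjusted p = 0.00174 and 0.0107), giving 6 members. Slc40a1 had 193 and 189 normalised counts in WT and 176 and 190.5 in TET iTKO at 0 h. Leaving out 1 of the 4 libraries left 1 or 2 members at 0 h, and Slc11a1 and Ftl1 failed the test each time. The 1 was without the second TET iTKO replicate. At 6 h 1 to 4 members passed, with 1 without the second TET iTKO replicate and 2 without the second WT replicate.

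Markers of other cells moved with the TET iTKO genotype. The summed macrophage markers were 23159 to 23203 CPM in TET iTKO and 26259 to 27424 in WT at 0 h, and 21870 to 22501 and 25526 to 27293 at 6 h. Most of that sum was Lyz2, at 14691 and 14345 CPM in TET iTKO and 19126 and 18014 in WT at 0 h. Of these 7 genes, 3 were lower (Cd68, Mertk and Lyz2) and 1 higher (Itgam) at 0 h, and 4 were lower at 6 h. Csf1r and Emr1 (both 0.18 at 0 h) did not pass at either time, so the markers did not move as 1 set. Neutrophil markers, of which 4 of 5 were found, summed to 65.9 to 135 against 28.2 to 52.0 at 0 h and 70.4 to 105 against 34.8 to 36.5 at 6 h, with S100a8 higher at both times. B cell markers summed to 3.37 to 16.5 against 1.31 to 1.56 at 0 h and 3.12 to 15.2 against 1.25 to 1.64 at 6 h. Their part in the lower counts of the iron genes was not tested.

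TDG iKO was not associated with a called change in any member. In Th2 cells 0 of the 10 members passed, where 0.0% of the 15826 genes tested did, and the members' median was 0.04 beside −0.01 for all genes. At an unadjusted p under 0.05 DESeq2 gave 77 genes and edgeR 87, and no member was among the 77. In BMDMs of the Tdg cohort 0 members passed at 0 h and at 6 h, where 0.0% of 15026 genes did at either time. The unadjusted counts were 265 genes (edgeR 344) at 0 h and 34 (edgeR 40) at 6 h, with no member among those of DESeq2, and edgeR called no gene in these comparisons. All these counts are below a share of 0.05 of the genes tested, which well-calibrated tests would reach without any effect. The tests were thus conservative, and 0 calls do not show that no member changed.

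In Th2 cells the WT libraries had 8299, 7429, 7656 and 7777 normalised counts of Fth1, on a scale of the Th2 libraries alone, and the TDG iKO libraries had 9065, 7345, 7699.5 and 7506 (log2 fold change 0.03). Tfrc had 12255, 13468, 6838 and 6949 in WT and 14910, 13082, 9004 and 9244 in TDG iKO (0.18). In both genotypes replicates 1 and 2 were above replicates 3 and 4, and the genotypes overlapped. Same-numbered samples deviated together, and with the number as a replicate block 0 members passed and 15 genes in all did. Ftl1 (0.09), Slc11a2 (−0.01), Aco1 (0.06), Ireb2 (0.02) and Ncoa4 (0.06) had log2 fold changes nearer 0 than that of Tfrc. Slc40a1, Cp and Slc11a1 had 0 to 3 raw counts per library, at which no difference between genotypes was detectable.

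In BMDMs at 0 h the fitted values turned on the library that stood apart. Fth1 had 183863 and 516755 normalised counts in WT and 170692 and 240451 in TDG iKO (log2 fold change −0.76, SE 0.47). Ncoa4 had 430 and 72.5 in WT and 428 and 437 in TDG iKO (0.76). Without that library Fth1 was at 0.17, Ftl1 at 0.01 in place of −0.63, Ncoa4 at 0.01 and Slc40a1 at −0.29 in place of 0.56, and none passed. With the first WT replicate left out, so that the library that stood apart was the only WT library, 4 members passed. At 6 h, where that library is in neither group, the log2 fold changes ran from −0.29 for Slc40a1 to 0.18 for Cp. Slc40a1 had 28.1 and 32.6 in WT and 34.6 and 15.5 in TDG iKO, so its genotypes overlapped. The genotypes did not overlap for Slc11a2, at 2583 to 2694 in TDG iKO and 2858 to 2875 in WT. Nor did they for Ncoa4, at 465 to 482 in TDG iKO and 429 to 437 in WT. Neither gene passed the test, and the other members overlapped.

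The differences between responses were tested directly. The KLA response of TET iTKO minus that of WT passed for 0 members, where 0.429% of 12114 genes (52) did (224 genes and 0 members with the replicate block), and the same difference for TDG iKO passed for 0 members, where 0.0% of 15026 genes did, with 37 at an unadjusted p under 0.05 (edgeR 71). No member was under 0.05 unadjusted in either. For Tfrc the TET iTKO difference was 0.28 with a 95% interval of −0.10 to 0.65, which includes 0. The TET iTKO effect minus the TDG iKO effect, each against the WT of its own cohort, passed for 0 members at 0 h, where 0.340% of 11172 genes (38) did, and for 0 at 6 h, where 0.0888% of 12393 genes (11) did.

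For Tfrc that difference at 0 h was −0.86 (SE 0.68, 95% interval −2.18 to 0.47). For Slc11a2 it was −0.76 (SE 0.34, interval −1.42 to −0.09, unadjusted p = 0.0258, DESeq2 adjusted p = 0.742), and for Slc11a1 at 6 h −0.59 (SE 0.24, unadjusted p = 0.0145, adjusted p = 0.970). The lower uptake genes passed in TET iTKO and not in TDG iKO, but the effects were not shown to differ. With the first WT replicate of the Tdg cohort left out of the 0 h comparison 8 members passed, and with any of the other 7 libraries left out 0 did.

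Other genes of iron handling were counted from a list of 53, of which 49 had a count. In TET iTKO against WT 5 of 39 tested genes passed at 0 h (2 higher and 3 lower), beside 7.56% of all genes, and 9 of 38 at 6 h (2 higher and 7 lower), beside 6.45%. Of the genes of haem uptake, breakdown and export, 1 of 9 was lower at 0 h and 5 of 8 at 6 h, beside 3.15% and 3.28% of all genes lower. Hmox1, the inducible haem oxygenase that frees iron from haem, was lower at 6 h (log2 fold change −0.62, DESeq2 adjusted p = 0.000822), with 24656 and 22946 normalised counts in WT and 18429 and 12820 in TET iTKO. Lrp1, a receptor that takes up haem-haemopexin, was at −0.58 (adjusted p = 0.00124). Blvra, a biliverdin reductase, was lower at 0 h (−0.39, adjusted p = 0.0351).

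Among carriers and reductases, Lcn2 encodes lipocalin-2, which binds bacterial siderophores and is also abundant in neutrophils. It had 227 and 170.5 normalised counts in WT and 1405 and 1036 in TET iTKO at 0 h (log2 fold change 2.62, DESeq2 adjusted p = 4.19e-49), and was higher by 1.61 at 6 h. Steap3, the ferrireductase of the transferrin cycle, had 1014 and 1112 in WT and 616 and 485 in TET iTKO at 0 h (−0.96, adjusted p = 1.11e-05) and was lower by −1.20 at 6 h (adjusted p = 6.12e-07). Trf, transferrin, was at −0.39 at 0 h (adjusted p = 0.019). Steap3 and Slc11a2, which act in the same endosome after Tfrc has delivered iron, were thus lower together with Tfrc in TET iTKO.

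With KLA 18 of 39 listed genes passed in WT of the Tet cohort (9 rose and 9 fell), 15 of 37 in TET iTKO (7 and 8), 4 of 38 in WT of the Tdg cohort (1 and 3) and 4 of 38 in TDG iKO (2 and 2). The shares of all genes called were 23.6%, 24.7%, 8.73% and 6.95% in the same order, and the counts of the Tdg cohort were near theirs. In both WT cohorts Slc25a37, a mitochondrial iron importer, rose (1.75 in the Tdg cohort and 1.65 in the Tet cohort) and Steap3 fell (−1.82 and −2.06). Flvcr1, a haem exporter, fell (−1.29 and −1.55), and Hfe, a partner of the transferrin receptor, fell (−1.16 and −0.93), though in the Tdg cohort its DESeq2 adjusted p was 0.0400 and edgeR did not call it (0.0623). No listed gene passed in the TDG iKO comparisons, with 45 tested in each. Lcn2 was the listed gene that passed in the TET iTKO interaction, with a response smaller by −1.01 (DESeq2 adjusted p = 0.00845). It also passed in the TET iTKO effect minus the TDG iKO effect at 0 h (2.74, adjusted p = 0.000396). In WT of the Tdg cohort at 0 h Lcn2 had 536 and 1343 normalised counts, the second in the library that stood apart. Between Th2 cells and BMDMs 28 of 45 passed, 9 higher and 19 lower in Th2 cells, among them 8 of the 9 haem genes, all lower. Of all genes 53.7% passed there, 28.4% higher and 25.3% lower.

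The genes whose pattern was most like that of 3 members were found by Pearson correlation of log2 normalised counts over the 8 BMDM group means, among 9475 genes, as a description. For Fth1 they were Sar1b (0.975), Psma3 (0.972) and Eif2b3 (0.970). For Slc40a1 they were Ptpn21 (0.986), Csrnp2 (0.985) and Pcmtd1 (0.982), and for Tfrc Kank3 (0.985), Mthfd1 (0.982) and Timp2 (0.979). The 8 means share cohort, KLA and the library that stood apart.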

How the data were processed

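The authors deposited raw counts of read pairs per gene for each library. Their processing notes name HISAT2, HTSeq-count, DESeq2 1.30.0 and mm9, and the annotation and strand setting are not given in the sources used here. Libraries were prepared from polyadenylated RNA with a directional kit. Tallies of unassigned pairs were left out. Counts were fitted with DESeq2 1.42.0 in R 4.3.3 (Wald test, median-of-ratios scaling, unshrunken log2 fold changes, Benjamini-Hochberg over all genes, adjusted p under 0.05). Each BMDM cohort was fitted as 4 groups of 2, and differences between knockouts on all 16 BMDM libraries. edgeR 4.0.16 (quasi-likelihood), TMM scaling, a filter of 10 counts in 2 libraries, replicate blocks and leaving out each library were alternatives, and the tests were checked on simulated data. Exon lengths, positions and sequences came from mm9 with the GENCODE annotation. The members and lists were chosen with earlier results of these data known. All members are named, and of the other iron genes those past the threshold in a knockout comparison or in both WT KLA comparisons, at most 3 per direction by fold change with a mean count of at least 50. Summing Th2 replicates 3 and 4 was likewise decided with earlier results known. Deviations from the group means correlated at 0.478, 0.652 and 0.898 over genes for same-numbered Th2 samples, and at 0.385 and 0.393 between 0 h and 6 h in the Tet cohort, where count-file names carry an animal number. Both were taken as pairs in the replicate-block alternatives only. The main fits had no block, so their p-values do not use the pairing. Intervals on count ratios cover counting error only.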

Additional observations from a re-analysis of the deposited data

How the results depend on the processing

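Of 32 calls of members in 14 comparisons, 18 passed under every alternative. In 292 alternative fits of these calls the direction did not reverse, and 38 lost the threshold. The number of members called moved by over 1.5 times in some settings. For KLA in WT of the Tdg cohort 2 became 1 with edgeR and with TMM factors, and 1 to 5 when a library was left out. For KLA in TDG iKO 1 became 3 under the replicate block (Cp, Tfrc and Slc11a2) and 2 with the library that stood apart out of the spread, an alternative chosen after seeing the data. Leaving out a library gave 1 to 2 in TET iTKO at 0 h, 1 to 4 at 6 h, 3 to 7 for KLA in TET iTKO, 0 to 4 in TDG iKO at 0 h, 0 to 3 for the TDG iKO interaction and 0 to 8 for TET iTKO minus TDG iKO at 0 h. Of the listed iron genes, KLA in WT of the Tdg cohort gave 13 under the replicate block and 1 to 9 with a library left out, KLA in TDG iKO 9 under the block and 8 with the library out of the spread, and the TET iTKO interaction 2 under the block and 0 to 1 with a library left out. Leaving out a library gave 2 to 3 of them in TET iTKO at 0 h, 2 to 8 at 6 h, 0 to 4 in TDG iKO at 0 h, 0 to 1 for the TDG iKO interaction and 1 to 11 for TET iTKO minus TDG iKO at 0 h. The causes were not tested.

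Without the WT 0 h library that stood apart, 16 of 50 log2 fold changes of members changed sign, none of them called with it. They were 6 in TDG iKO at 0 h, 2 for KLA in WT of the Tdg cohort, 5 in the TDG iKO interaction and 3 in TET iTKO minus TDG iKO at 0 h. For 7 of the 16, which passed the test in some other alternative, the ranges over the libraries left out in turn follow. In TDG iKO at 0 h they were −1.32 to 0.17 for Fth1, −1.08 to 0.00909 for Ftl1 and −0.00264 to 1.05 for Ireb2. In the TDG iKO interaction Ncoa4 ran from −2.46 to 0.12. In TET iTKO minus TDG iKO at 0 h Fth1 ran from −0.20 to 1.29, Ftl1 from −0.32 to 0.78 and Slc40a1 from −3.55 to 0.24.

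Counts over all genes moved too. With a library left out they ran from 0 to 1184 in TDG iKO at 0 h, 0 to 241 for its interaction, 353 to 2211 and 372 to 696 for KLA in WT and TDG iKO of the Tdg cohort, 280 to 743 and 262 to 699 in TET iTKO at 0 h and 6 h, 15 to 154 for its interaction, and 14 to 2409 and 2 to 17 for TET iTKO minus TDG iKO at 0 h and 6 h. The highest at 0 h in the Tdg cohort were without the first WT replicate. edgeR called 1637 genes in TET iTKO at 0 h, 1407 at 6 h, 270 for the TET iTKO interaction and 1 for TET iTKO minus TDG iKO at 6 h. The replicate block gave 15 genes in Th2 cells, 1813 and 1315 for KLA in WT and TDG iKO of the Tdg cohort, 4 in TDG iKO at 0 h, 224 for the TET iTKO interaction, and 182 and 101 for TET iTKO minus TDG iKO at 0 h and 6 h. It changed no call of a member beyond those named here and above. Within the Tdg cohort the libraries share only a number, with 2 pairs each, though same-numbered libraries deviated together, at 0.335 and 0.772 between genotypes at 0 h and 6 h and at 0.346 and 0.789 between times in WT and TDG iKO. Th2 replicates 3 and 4 as separate libraries gave 2 genes, and 87 with the block, with no member among them. With the longest transcript in place of the union of exons, median levels in BMDMs were 6002 RPKM for Ftl1, 204 for Slc11a1, 33.5 for Slc11a2 and 14.1 for Cp. Depth limits Slc40a1, Cp and Slc11a1 in Th2 cells, and 2 libraries per group limit the BMDM comparisons.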
